A study of Mus musculus with 12 samples.

Results

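The genes described here encode the proteins of the cytosolic ribosome, measured by RNAseq in the brains of R6/2 mice, a transgenic model of Huntington's disease (HD), and of their WT littermates. They were taken by symbol, as every row named Rpl or Rps with a number, Rplp0 to Rplp2, or Rpsa, leaving out the Rps6k kinases (10 rows) and names with -ps (7 rows). The rule gave 88 of 23282 gene rows, 53 with names of the large subunit and 35 with names of the small subunit. It also took in tissue-restricted or duplicated copies (Rpl3l, Rpl10l, Rpl39l, Rpl22l1, Rpl36al, Rps27l, Rps4l, Rps27rt, Rpl37rt) and 2 genes whose products are not structural subunits of the cytosolic ribosome, Rpl7l1 and Rps19bp1. A count in every library was found for 85 of the 88, and these 85 passed the filter on low counts in the comparisons of the HD stages and of HD with WT mice.

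The cytosolic ribosome joins a small subunit, which reads the mRNA, and a large subunit, which forms the peptide bond. Its proteins are made in near equal amounts from genes scattered over the genome, and many of their mRNAs start with a run of pyrimidines through which mTOR signalling controls their translation. Neurons depend on ribosomes both in the cell body and along dendrites and axons, and their protein synthesis has been studied as a weak point in neurodegenerative disease. RNAseq measures the mRNA of these genes and neither ribosome number nor translation.

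HD mice carried the R6/2 transgene, which holds the first exon of human HTT with an expanded CAG repeat, and WT mice did not. The post-symptomatic age was 13 weeks and the pre-symptomatic age 8 weeks per the labels, for both genotypes. HD striatum and HD cortex had 2 libraries each at each age, and WT striatum and WT cortex had 1 library each at each age, 12 in all. The labels name neither the mice nor the number of mice per library, and p-values therefore measure the spread between libraries. Since the tissue was bulk, fewer cells of a type and less RNA per cell cannot be told apart.

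Total counts lay between 8814386 and 12091201 per library, of which 1.11% to 2.01% fell on the 88 genes (117451 to 205261 counts). The rRNA precursor Rn45s took 10.5% to 15.2% of the counts in HD and 4.32% to 5.62% in WT libraries. Levels below are CPM, counts relative to library size, scaled by TMM factors, which in HD mice lay between 0.890 and 0.975 at 8 weeks and between 1.04 and 1.11 at 13 weeks. Markers of the labelled region were checked first. Those of striatum (8 genes) summed to 1327 to 7442 CPM in striatum and 115 to 360 CPM in cortex libraries, and those of cortex (6 genes) to 12.6 to 155 CPM and 647 to 1281 CPM, but 2 libraries stood apart. Replicate 2 of pre-symptomatic HD striatum held 2147 CPM of striatum markers against 6905 CPM in replicate 1, with 19780 against 3180 CPM of oligodendrocyte markers (7 genes) and 730 against 35.7 CPM of 2 thalamus markers. Replicate 2 of post-symptomatic HD cortex held 3015 CPM of choroid plexus markers (5 genes) against 68.3 CPM in replicate 1. Xist and Ddx3y showed that replicate 1 of each HD group was male and replicate 2 female, while the WT libraries were female at 13 weeks and male at 8 weeks. The counts of called genes are given below with and without these libraries.

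The starts of 9 genes that the comparisons below turn on are shown first, because the pyrimidine run at the start is the best known feature that ribosomal protein genes share and the rule did not use it. Each line gives 10 bases before and 20 bases from the RefSeq start on the strand of the gene (GRCm38.p6), with capitals for a stretch of at least 5 bases, each C or T, counted from a C that lies within 3 bases of the start. Any C or T just before that C is not counted, so that a marked stretch can be the end of a longer one. The first 4 have such a run and the last 5 do not.
Rps6 (chr4:86857348-86857377, minus strand): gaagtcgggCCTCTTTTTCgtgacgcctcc
Rps21 (chr2:180257369-180257398, plus strand): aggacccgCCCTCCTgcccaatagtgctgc
Rps9 (chr7:3704031-3704060, plus strand): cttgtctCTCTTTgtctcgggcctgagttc
Rpl31 (chr1:39367841-39367870, plus strand): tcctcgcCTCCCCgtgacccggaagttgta
Rpl5 (chr5:107900518-107900547, plus strand): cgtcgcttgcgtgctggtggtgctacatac
Rpsa (chr9:120127756-120127785, plus strand): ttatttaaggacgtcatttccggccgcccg
Rpl4 (chr9:64173377-64173406, plus strand): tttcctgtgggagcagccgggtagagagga
Rps3a1 (chr3:86142649-86142678, minus strand): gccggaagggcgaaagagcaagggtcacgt
Rps12 (chr10:23787190-23787219, minus strand): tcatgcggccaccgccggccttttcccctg
Of the 67 members with a RefSeq promoter entry, 26 (38.8%) had such a run at one of their listed starts, against 3651 of 27025 genes (13.5%) with an entry. The share was 13.0% of 69 mitochondrial ribosomal protein genes, which serve the separate ribosome of that organelle. A missing run says only that these letters are not at the annotated start, and starts can be annotated a few bases away from where transcription begins.

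The libraries count 3′ ends, so that transcript length does not enter the CPM. Reads shared with copies of a gene can still change its level, and levels are set side by side here with that limit, given below. The mean level of the 85 genes over the 12 libraries ranged from 14.1 to 1539 CPM with a median of 107 CPM, and 47 of them lay above 100 CPM. The 6 highest took 27.4% of the sum of all 85. They were Rplp1, a protein of the stalk that recruits translation factors, at 1539 CPM, Rpl37rt at 809 CPM, Rps14 at 601 CPM, Rpl4, which lines the exit tunnel, at 545 CPM, Rps9 at 477 CPM and Rps20 at 405 CPM. The rows of the other stalk proteins were lower, with Rplp2 at 312 CPM and Rplp0 at 95.1 CPM. However, the row Rplp2-ps1, which the rule left out, held 540 to 885 CPM over the 12 libraries. Whether reads of Rplp2 were counted there was not tested, so that the level of Rplp2 is uncertain.

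Copies of the same protein differed in level from their better known partner. Rpl37rt, which GENCODE M21 lists as a transcribed processed pseudogene, lay above Rpl37 at 287 CPM, and no 50-base stretch of its last 300 transcript bases was shared with another annotated gene. Rps27rt (68.1 CPM) lay above Rps27 (29.2 CPM), and Rpl36al (106 CPM) above Rpl36a (49.5 CPM). Rpl22l1 was at 121 CPM beside 381 CPM of Rpl22, Rps27l at 14.1 CPM, Rpl7l1 at 35.9 CPM beside 67.4 CPM of Rpl7, and Rps19bp1, whose product binds that of Rps19, at 31.5 CPM beside 66.3 CPM of Rps19. The muscle form Rpl3l and the copies Rpl39l and Rpl10l were at or near 0, with at most 9, 5 and 1 counts in a library, where a count of 0 allows up to 3 counts or 0.254 to 0.351 CPM, depending on the library. For 74 of the 88 genes such a 50-base stretch was shared with at least 1 annotated gene elsewhere, mostly processed pseudogenes, with a median of 7 and up to 82 for Rpl29. How reads with several matching places were counted is not given in the sources used here, so that the level of these 74 genes is uncertain where copies took a part of the reads.

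The sum over the 88 genes is the broadest view of the module. In striatum it was 18969 CPM in WT mice and 17966 and 14127 CPM in HD mice at 8 weeks, and 19576 CPM in WT mice and 17696 and 17586 CPM in HD mice at 13 weeks. In cortex it was 16050 CPM in WT mice and 12354 and 12776 CPM in HD mice at 8 weeks, and 14836 CPM in WT mice and 14879 and 14724 CPM in HD mice at 13 weeks. Every HD cortex library at 8 weeks was below every other cortex library. In striatum the same was true of only 1 of the 2 pre-symptomatic HD libraries, the one with few striatum and many oligodendrocyte markers, and the other lay between the post-symptomatic HD and the WT libraries.

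**Figure D1:**
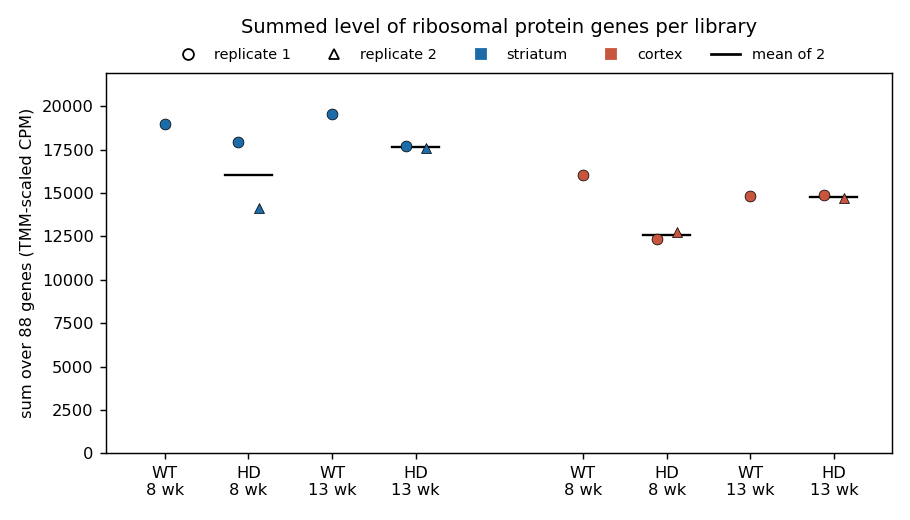
Sum of the TMM-scaled CPM of the 88 ribosomal protein genes (y axis) in each of the 12 libraries, by genotype and age in weeks (x axis), with striatum in blue and cortex in red. Circles are replicate 1, triangles replicate 2 and bars the mean of 2 libraries. Pre-symptomatic HD cortex lies lowest, at 12354 and 12776 CPM, and the HD striatum libraries at 8 weeks lie apart, at 17966 and 14127 CPM.

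The first comparison asks how HD mice after symptom onset differed from HD mice before it, with region as a term (8 libraries, 13944 genes). Ribosomal protein genes lay mostly higher at 13 weeks, with a median log2 fold change of 0.21 against 0.0023 for all genes, and 79 of 85 had a positive value. Of the 85, 7 rose (8.24%), where 1.93% of all genes tested rose, and 2 fell (2.35%), where 4.53% of all genes fell. Those that rose were the small-subunit genes Rps21, Rps6, Rps20 and Rps9, the large-subunit genes Rpl5 and Rpl30, and the row Rps4l. Rps4l is annotated as a transcribed pseudogene, and its reads cannot be told from those of Tmtc1, as given below. Those that fell were Rpl3 and Rps3a1. The change was modest, with folds between 1.33 and 1.49 for those that rose other than Rps4l, and it depended on few libraries, as given below.

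Rps21 encodes a protein of the small subunit. In HD striatum it was at 137 and 115 CPM at 8 weeks and at 172 and 194 CPM at 13 weeks, and in HD cortex at 118 and 108 CPM at 8 weeks and at 152 and 186 CPM at 13 weeks. The groups did not overlap in either region, and the log2 fold change was 0.57 (SE 0.11, adjusted p = 0.0184 by edgeR). WT mice were at 165 and 189 CPM in striatum and at 132 and 117 CPM in cortex at 8 and 13 weeks.

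Rps6, the protein that S6 kinases phosphorylate downstream of mTOR, was at 114 and 96.5 CPM in HD striatum at 8 weeks and at 141 and 131 CPM at 13 weeks. In HD cortex it was at 75.5 and 76.8 CPM at 8 weeks and at 116 and 107 CPM at 13 weeks. Groups were apart in both regions, with a log2 fold change of 0.47 (SE 0.10, adjusted p = 0.0254 by edgeR). In WT mice it was at 137 and 151 CPM in striatum and at 96.4 and 97.9 CPM in cortex at 8 and 13 weeks, so that the pre-symptomatic HD libraries were the lowest of each region.

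Rpl5, which together with Rpl11 can bind Mdm2 when ribosome assembly fails, was at 239 and 181 CPM in HD striatum at 8 weeks and at 282 and 278 CPM at 13 weeks. In HD cortex it was at 176 and 178 CPM at 8 weeks and at 249 and 243 CPM at 13 weeks, and the log2 fold change was 0.46 (SE 0.11, adjusted p = 0.0356 by edgeR). Its partner Rpl11 had a log2 fold change of 0.43 that did not pass (SE 0.14, adjusted p = 0.0998 by edgeR). Rps20, Rps9 and Rpl30 had log2 fold changes of 0.46, 0.41 and 0.47, with adjusted p-values of 0.0257, 0.0355 and 0.0490 by edgeR.

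Rpl3, a protein close to the site of peptide bond formation, was at 159 and 119 CPM in HD striatum at 8 weeks and at 99.5 and 81.6 CPM at 13 weeks. In HD cortex it was at 100 and 101 CPM at 8 weeks and at 70.2 and 69.4 CPM at 13 weeks, a log2 fold change of -0.56 (SE 0.12, adjusted p = 0.0244 by edgeR). The WT libraries lay in the same order, at 155 and 106 CPM in striatum and at 147 and 78.0 CPM in cortex at 8 and 13 weeks.

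Rps3a1, of the small subunit, was at 290 and 228 CPM in HD striatum at 8 weeks and at 165 and 150 CPM at 13 weeks. In HD cortex it was at 192 and 208 CPM at 8 weeks and at 166 and 142 CPM at 13 weeks, and the log2 fold change was -0.54 (SE 0.12, adjusted p = 0.0303 by edgeR). In WT mice it was at 330 and 189 CPM in striatum and at 303 and 154 CPM in cortex. Over the 4 WT libraries, the later less the earlier age gave -0.89 for Rps3a1 and -0.74 for Rpl3 on the log2 scale (adjusted p = 0.457 and 1 by edgeR), and in WT mice age cannot be told apart from sex.

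**Figure D2:**
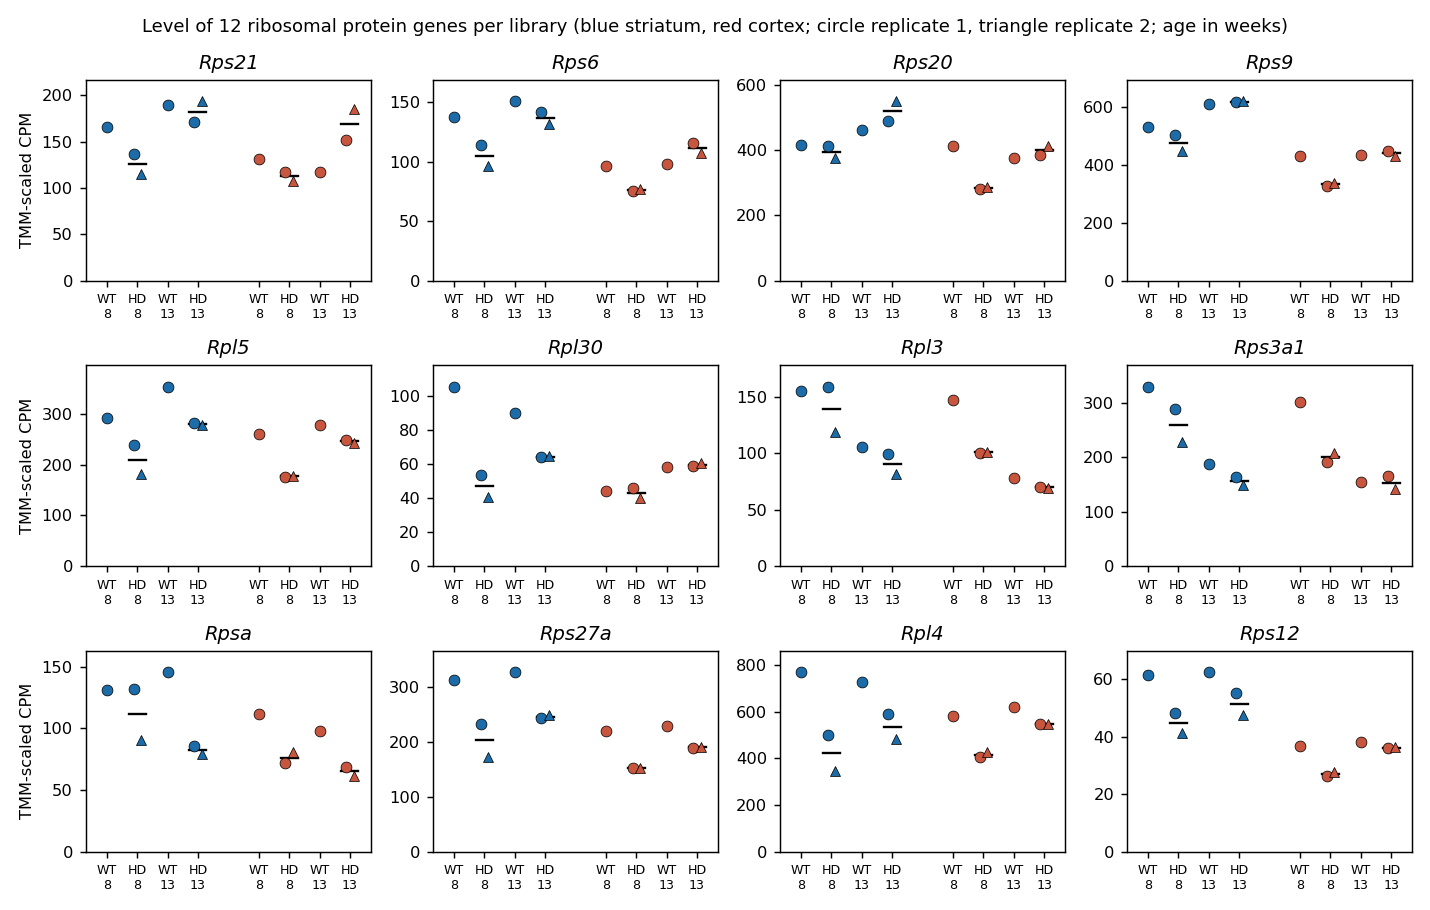
TMM-scaled CPM (y axes, from 0) of 12 ribosomal protein genes in each library, by genotype and age in weeks, with striatum in blue and cortex in red, circles for replicate 1, triangles for replicate 2 and bars for the mean of 2 libraries. Rps6, Rps9 and Rpl5 are lowest in pre-symptomatic HD mice in cortex, whereas Rpl3 and Rps3a1 are lower at 13 than at 8 weeks in HD and WT mice of both regions.

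The rise depended on which pre-symptomatic libraries it was set against. In cortex, each of the 4 pairings of a post-symptomatic with a pre-symptomatic HD library had the higher sum at 13 weeks, by 1.15 to 1.2 times, with 71 to 76 of 85 genes higher. In striatum, both post-symptomatic libraries were at 1.25 and 1.24 times the sum of replicate 2 of the pre-symptomatic group, with 75 and 76 genes higher, but at 0.985 and 0.979 times that of replicate 1, with 44 of 85 genes higher in each. That replicate 2 is the library with many oligodendrocyte markers. Markers of the regions also moved with stage in HD mice, those of cortex from 1212 and 1122 CPM in cortex at 8 weeks to 647 and 734 CPM at 13 weeks, and those of striatum from 6905 and 2147 CPM in striatum to 1327 and 1352 CPM. Their part in the result was not tested. Taken by region, the median log2 fold change was 0.19 in striatum and 0.27 in cortex, and in striatum it was 0.01 without that library. None of the 85 passed in either region by edgeR, where 0.0139% and 0.0347% of 14392 genes rose and 0.146% and 0.556% fell. At an unadjusted p under 0.05, 7 were higher and 2 lower in striatum (741 and 1131 of all genes), and 16 were higher and 2 lower in cortex (744 and 1317 of all genes). DESeq2 called 1 lower in striatum and 1 higher in cortex, and its share of all genes is not given here. The difference between the striatal and the cortical change passed for none of the 85 by edgeR (0%; of all genes 306 were higher and 213 lower at an unadjusted p under 0.05, none of them among the 85) or DESeq2 among the 85, with a median of -0.08 over the 85.

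For alternative runs, here and below, the share of all genes called is not given. Their counts show only how the number of called members varied. The count of 9 changed genes was unstable. It fell to 0 without either pre-symptomatic HD cortex library, to 1 without post-symptomatic HD cortex replicate 1 or 2 or striatum replicate 1, and to 2 without post-symptomatic HD striatum replicate 2, and it rose to 19 (17 higher) without pre-symptomatic HD striatum replicate 1. Leaving out pre-symptomatic HD striatum replicate 2 gave 8 (6 higher), and leaving out both libraries that stood apart gave 3 (1 higher, 2 lower). With counts scaled by library size alone, 43 rose and 0 fell, but that scaling moved the median of all genes to 0.206 and that of the 85 to 0.415. Under the other scalings (upper quartile, RLE, without Rn45s, without the ribosomal protein genes) the median of the 85 lay between 0.192 and 0.249. Groups did not overlap in either region for 25 genes higher at 13 weeks (29.4%, against 9.35% of all genes) and for 3 lower (3.53%, against 11.3%).

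**Figure D3:**
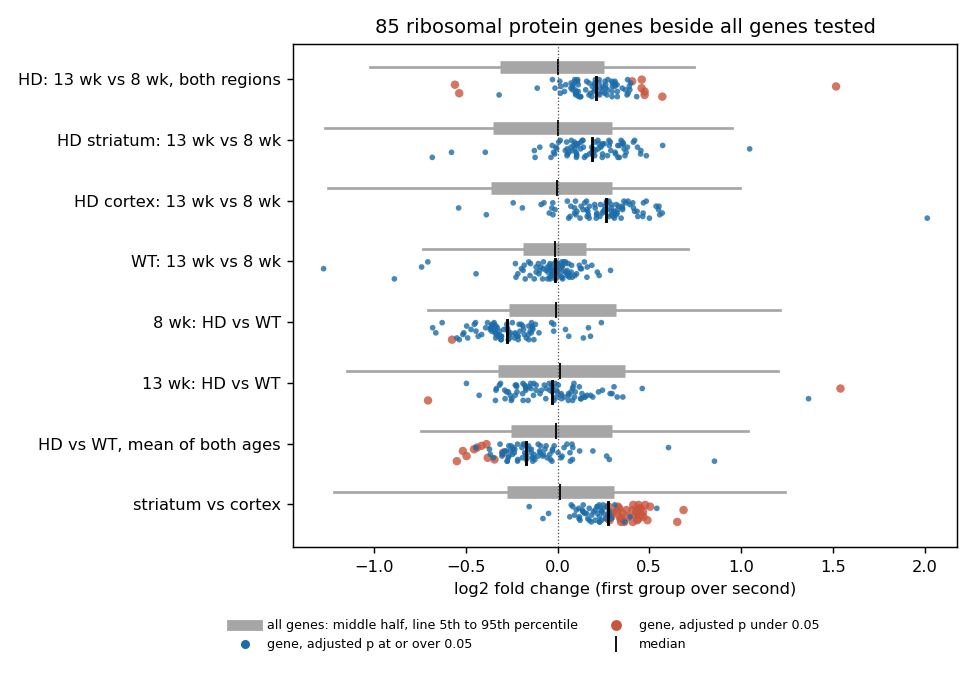
Log2 fold change (x axis) of the 85 ribosomal protein genes in 8 comparisons, as points with a bar at their median, and of all genes tested, as a grey interquartile box with a line from the 5th to the 95th percentile. Red points have an adjusted p-value under 0.05 by edgeR. The 85 genes lie to the right in HD mice at 13 against 8 weeks (median 0.21) and in striatum against cortex (0.27), and to the left in HD against WT mice at 8 weeks (-0.28), while they centre near 0 in WT mice at 13 against 8 weeks (-0.01).

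HD mice were next set against WT littermates at each age, using all 12 libraries and 14706 genes, where each WT age had 1 library per region. At 8 weeks, 79 of 85 genes lay below WT mice, with a median log2 fold change of -0.28 against -0.01 for all genes. Of the 85, 1 fell (1.18%, where 0.15% of all genes fell and 1.95% rose), and it was Rps27a, which is made fused to ubiquitin and supplies part of the ubiquitin of the cell. Rps27a was at 312 CPM in WT and 233 and 173 CPM in HD striatum, and at 220 CPM in WT and 152 and 153 CPM in HD cortex, with a log2 fold change of -0.58 (SE 0.13, adjusted p = 0.0449 by edgeR). That call was near the threshold, and with 1 library left out it held without either pre-symptomatic HD striatum library and was lost without any other, with adjusted p-values between 0.0293 and 0.353 by edgeR. It was also lost with the replicate number, which is sex in HD mice, as a block (0 called), and it held without both libraries that stood apart (1 called). At an unadjusted p under 0.05, 37 of the 85 were lower and none was higher (753 and 1296 of all 14706 genes), and all HD libraries lay below WT in both regions for 48 (56.5%, against 15.1% of all genes) and above it for 1 (1.18%, against 15.4%). These pre-symptomatic HD libraries also entered the comparison of HD stages, so that both comparisons share them.

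By library, the difference at 8 weeks was even in cortex and uneven in striatum. In cortex the HD sums were 0.770 and 0.796 times the WT sum, with 75 and 78 of 85 genes below WT. In striatum they were 0.947 times for replicate 1, with 59 genes below, and 0.745 times for replicate 2, the library with few striatum markers, with 78 genes below. Without that library the median over the 85 was -0.25, and over all 12 fits that left out 1 library it lay between -0.35 and -0.22.

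At 13 weeks the 85 genes were centred close to all genes, with medians of -0.03 and 0.01. The former lay between -0.05 and 0.05 under other settings and between -0.13, without WT cortex at 13 weeks, and 0.0048, without WT striatum at 13 weeks, with 1 library left out. Of the 85, 1 rose, Rps4l (1.18%, against 3.1% of all genes), and 1 fell, Rpsa (1.18%, against 4.26%). Rpsa, a small-subunit protein also known as a laminin receptor, was at 145 CPM in WT and 85.4 and 79.5 CPM in HD striatum. In cortex it was at 98.0 CPM in WT and 68.8 and 61.3 CPM in HD mice, and the log2 fold change was -0.71 (SE 0.16, adjusted p = 0.0192 by edgeR). Both calls were lost without either WT library of that age (0 calls), and that of Rps4l also without HD striatum replicate 1. The count was 2 without HD cortex replicate 2 and 3 (1 higher, 2 lower) without both libraries that stood apart. HD and WT groups did not overlap in either region for 29 lower genes (34.1%, against 22.6% of all genes) and for 9 higher ones (10.6%, against 21.4%). The sums in HD striatum were 0.904 and 0.898 times that of WT striatum, with 64 and 61 genes below it, and in cortex 1 and 0.992 times, with 35 and 44 genes below.

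Over both ages together, 10 of the 85 fell (11.8%, against 4.51% of all genes) and none rose (6.18% of all genes rose). None of the 85 that was higher passed by edgeR. By edgeR, 2 of the 85 were higher and 28 lower at an unadjusted p under 0.05 (1908 and 1898 of all genes). DESeq2 called 2 higher and 18 lower, and its share of all genes is not given here. In simulated data for this comparison, 14.2% of the DESeq2 calls were false, against 6.13% of the edgeR calls. There, 200 of 14378 genes were changed by a log2 fold of 1.5, more than any member here. The libraries were independent and their spread was the one edgeR estimated, so these false rates may not hold for the real calls. Among the genes called by edgeR, the strongest decreases were those of Rpsa, Rps19, Rpl4, Rps27a, Rpl17 and Rpl31, between -0.55 and -0.41 on the log2 scale. Rpsa had a log2 fold change of -0.55 (SE 0.11, adjusted p = 0.00867 by edgeR). At 8 weeks it was at 131 CPM in WT and 132 and 90.3 CPM in HD striatum, and at 111 CPM in WT and 72.3 and 80.5 CPM in HD cortex, so that 1 striatum library did not follow the direction of the others.

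Rpl4 had a log2 fold change of -0.50 (SE 0.12, adjusted p = 0.0170 by edgeR). In striatum it was at 768 CPM in WT and 499 and 347 CPM in HD mice at 8 weeks, and at 725 CPM in WT and 589 and 483 CPM in HD mice at 13 weeks. In cortex it was at 583 CPM in WT and 405 and 427 CPM in HD mice at 8 weeks, and at 622 CPM in WT and 547 and 545 CPM in HD mice at 13 weeks. All 8 HD libraries were below their WT library. Rps19, a small-subunit gene mutated in Diamond-Blackfan anaemia, had a log2 fold change of -0.52 (SE 0.13, adjusted p = 0.0234 by edgeR), and Rps27a one of -0.46 (SE 0.09, adjusted p = 0.00908 by edgeR). The other 4 that fell were Rpl5, Rpl36al, Rpl35 and Rpl29, each of which lay below WT in all 8 HD libraries. Rpl35 and Rpl29 are named here after their values were seen.

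All HD libraries lay below WT in both regions and at both ages for 19 of the 85 (22.4%, against 6.17% of all genes), and above it for 1, Rpl6 (1.18%, against 7.97%). Rpl6 was at 188 and 234 CPM in WT striatum and 200 to 273 CPM in HD striatum, and at 171 CPM at both ages in WT cortex and 192 to 253 CPM in HD cortex. It did not pass at 13 weeks, with a log2 fold change of 0.33 (SE 0.14, adjusted p = 0.184 by edgeR).

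The count of 10 lower genes depended on single libraries, WT ones above all. It was 0 without WT striatum at 13 weeks, 3 without WT cortex at 13 weeks, 2 without WT striatum and 5 without WT cortex at 8 weeks. Without HD libraries it was 5 (post-symptomatic striatum replicate 1, pre-symptomatic cortex replicate 1 or 2), 6 (post-symptomatic striatum replicate 2) or 19 (pre-symptomatic striatum replicate 1). Without both libraries that stood apart, 12 were lower and 2 higher. With the replicate number as a block, 2 were lower. All WT libraries have number 1, which is male in HD mice, but those at 13 weeks were female. The block therefore does not adjust this comparison for sex. Under every alternative run the median of the 85 was below 0, between -0.21 and -0.12.

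WT mice at 13 against 8 weeks had 1 library per region and age. None of the 85 passed by edgeR (0.0068% of all genes rose and 0.0068% fell), and DESeq2 called 1. At an unadjusted p under 0.05 by edgeR, 3 of the 85 were lower and none higher (130 and 137 of all genes). The median of the 85 was -0.01. The change with age in HD less that in WT mice was positive for 79 of 85, with a median of 0.24 against -0.01 for all genes. None passed by edgeR or DESeq2 (0.0136% and 0.102% of all genes were called higher and lower). For this change, 5 were higher and none lower at an unadjusted p under 0.05 by edgeR (440 and 872 of all genes). None of 86 genes passed by edgeR or DESeq2 when the HD less WT difference was compared between regions (0% of 15337 genes by edgeR at each age). With an unadjusted p under 0.05 by edgeR, 1 of 86 was lower at 13 weeks and 4 of 86 at 8 weeks, and none was higher. Of all 15337 genes, 246 and 640 were lower and 219 and 225 higher at that cut.

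Ribosomal protein genes lay higher in striatum than in cortex in all 6 pairings of a striatum with a cortex library of the same group and number, with 72 to 82 of 85 genes higher and sums 1.11 to 1.45 times as high. In the fit of all 12 libraries, 36 of 85 were higher in striatum (42.4%, against 8.51% of all genes) and none was lower (12.1% of all genes were). DESeq2 called none lower. At an unadjusted p under 0.05 by edgeR, 55 of the 85 were higher and none lower (2301 and 2606 of all genes). The median log2 fold change was 0.27 against 0.01 for all genes. Both subunits took part, with 18 of 50 genes of the large and 18 of 35 of the small subunit called.

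Among the called genes, the largest differences were those of Rpl31, Rps12, Rplp1, Rps23, Rps29 and Rps9. Rps12, of the small subunit, was at 61.6 and 62.4 CPM in WT striatum and at 48.2, 41.1, 55.2 and 47.6 CPM in HD striatum. In cortex it was at 36.7 and 38.0 CPM in WT and at 26.3, 27.7, 36.0 and 36.5 CPM in HD mice. The regions did not overlap, with a log2 fold change of 0.65 (SE 0.10, adjusted p = 0.000519 by edgeR). Rpl31, which lies at the exit of the tunnel, ranged from 109 to 189 CPM in striatum and from 78.5 to 114 CPM in cortex, with a log2 fold change of 0.69 (SE 0.11, adjusted p = 0.00109 by edgeR).

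Rplp1 was at 1989 and 2027 CPM in WT striatum, at 1954, 1365, 1798 and 1675 CPM in HD striatum, at 1613 and 1376 CPM in WT cortex and at 1131, 1206, 1230 and 1101 CPM in HD cortex. Its log2 fold change was 0.50 (SE 0.10, adjusted p = 0.00424 by edgeR), and that of Rplp2 was 0.47 (SE 0.09, adjusted p = 0.00288 by edgeR). The lowest striatum value was again that of replicate 2 of pre-symptomatic HD striatum. Striatum libraries were above all cortex libraries of the same group for 40 of the 85 genes (47.1%, against 7.36% of all genes), and below them for none (11.2% of all genes). The count was 48 without that library and between 13 and 48 over the fits that left out 1 library, lowest without the 13-week WT library of striatum or of cortex (13 each), and 22 and 20 without replicate 1 or 2 of pre-symptomatic HD cortex. It was 27 without post-symptomatic HD cortex replicate 2 and 48 without both libraries that stood apart. Striatum markers in HD striatum were at 6905 and 2147 CPM at 8 weeks and at 1327 and 1352 CPM at 13 weeks. Oligodendrocyte markers (7 genes, none at 0) ranged from 3180 to 19780 CPM in striatum and from 2238 to 4224 CPM in cortex, and their part in the difference was not tested.

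**Figure D4:**
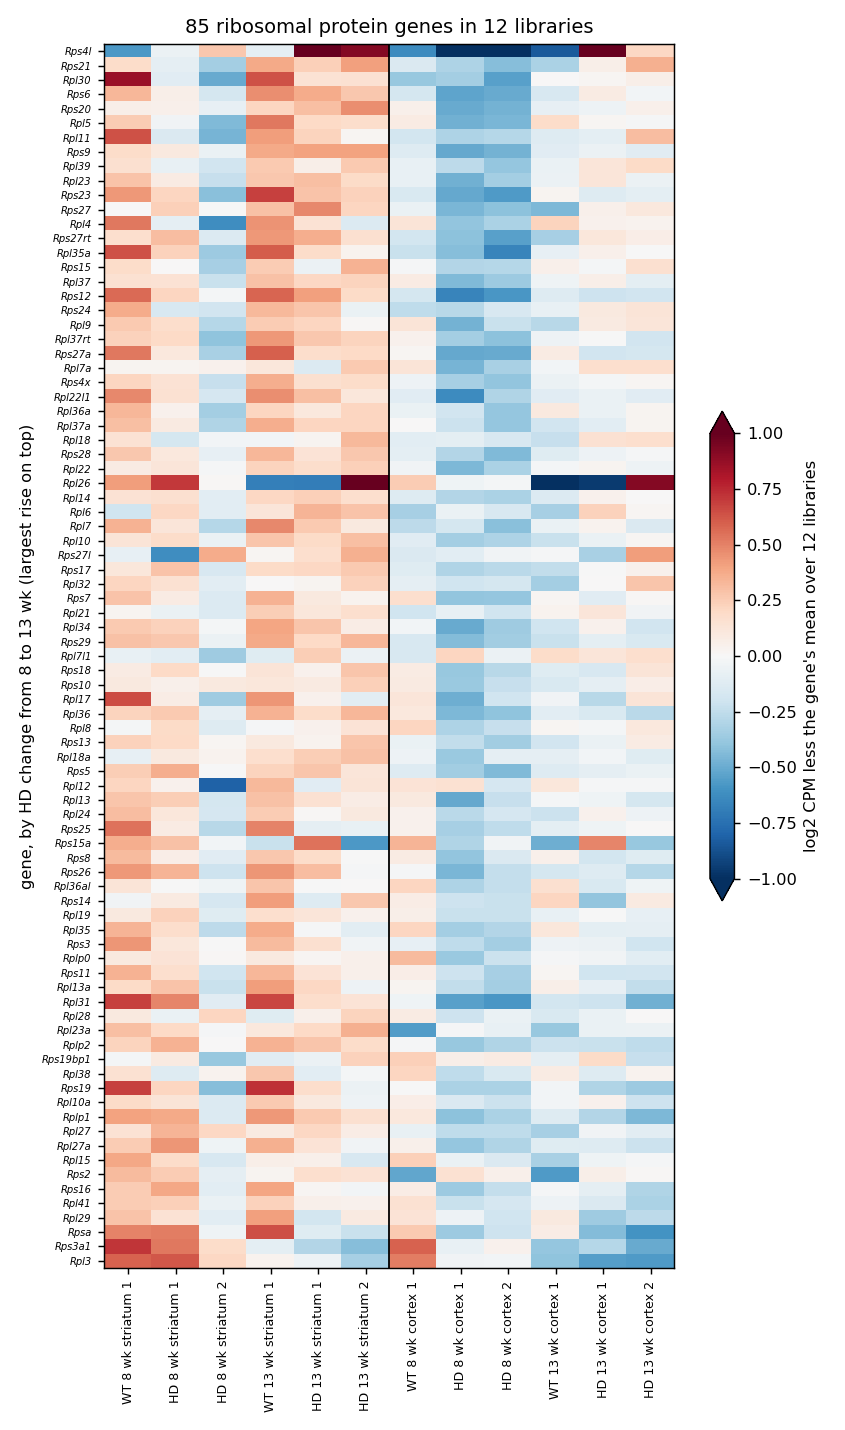
Log2 CPM of each of the 85 ribosomal protein genes (rows, ordered by their change in HD mice from 8 to 13 weeks) less its own mean over the 12 libraries, from blue (lower) to red (higher), limited to 1 either way. Columns are libraries, striatum left and cortex right of the line. Most rows are blue in both pre-symptomatic HD cortex libraries and red in WT striatum, and the row of Rpl26 differs between replicates of post-symptomatic HD mice in both regions.

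A few members did not follow the rest and differed between replicates, and they were picked out after their values were seen. Rpl26, a large-subunit protein, was at 123 CPM in post-symptomatic HD striatum replicate 1 and at 477 CPM in replicate 2, and at 102 and 374 CPM in cortex. It was at 123 and 87.0 CPM in WT mice of that age, at 265 and 236 CPM in WT mice at 8 weeks and between 191 and 322 CPM in pre-symptomatic HD mice. Rps15a, of the small subunit, lay the other way, at 310 and 299 CPM in replicate 1 of striatum and cortex and at 143 and 163 CPM in replicate 2. Both genes have pseudogenes that share 50-base stretches of the 3′ end, 12 for Rpl26 and 9 for Rps15a. The row Rps15a-ps6, which the rule left out, moved opposite to Rps15a in post-symptomatic HD striatum and cortex. It was at 41.0 and 36.1 CPM in replicate 1 and at 73.6 and 66.4 CPM in replicate 2. Whether reads of Rps15a were counted there was not tested, so that the difference between replicates may not be one of Rps15a. Over the 85 genes, the log2 ratios of replicate 2 to replicate 1 in striatum and cortex correlated with r = 0.741 after and r = 0.148 before symptom onset, across genes that are not independent replicates, beside 0.205 and 0.117 over all 13944 genes. The r of 0.741 includes the genes picked out here. After symptom onset, these log2 ratios in striatum and cortex were 1.95 and 1.86 for Rpl26, and -1.11 and -0.866 for Rps15a. For Rps4l they were -0.393 and -1.27. No r was computed without these genes, so that it does not show a pattern shared by the other members. Of the 85, only Rpl26, Rps15a and Rps4l differed more than 2-fold between replicates of an HD group, on CPM with 1 added.

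Rps4l, a processed copy of the small-subunit gene Rps4x that the annotation lists as a transcribed pseudogene overlapping Tmtc1 on the other strand, had the largest fold changes. It was at 17.8 and 22.4 CPM in HD striatum at 8 weeks and at 46.2 and 35 CPM at 13 weeks, and at 9.22 and 9.03 CPM in HD cortex at 8 weeks and at 53.1 and 21.4 CPM at 13 weeks. WT mice were between 10.3 and 17.5 CPM. In HD mice it rose after symptom onset by 1.52 on the log2 scale (SE 0.32, adjusted p = 0.0264 by edgeR), and at 13 weeks it was higher than in WT mice by 1.54 (SE 0.38, adjusted p = 0.0314 by edgeR). Rps4x itself was at 120 and 92.8 CPM in HD striatum at 8 weeks and at 122 and 124 CPM at 13 weeks. Without strand information on the counts, reads of Rps4l and of Tmtc1 cannot be told apart.

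**Figure D5:**
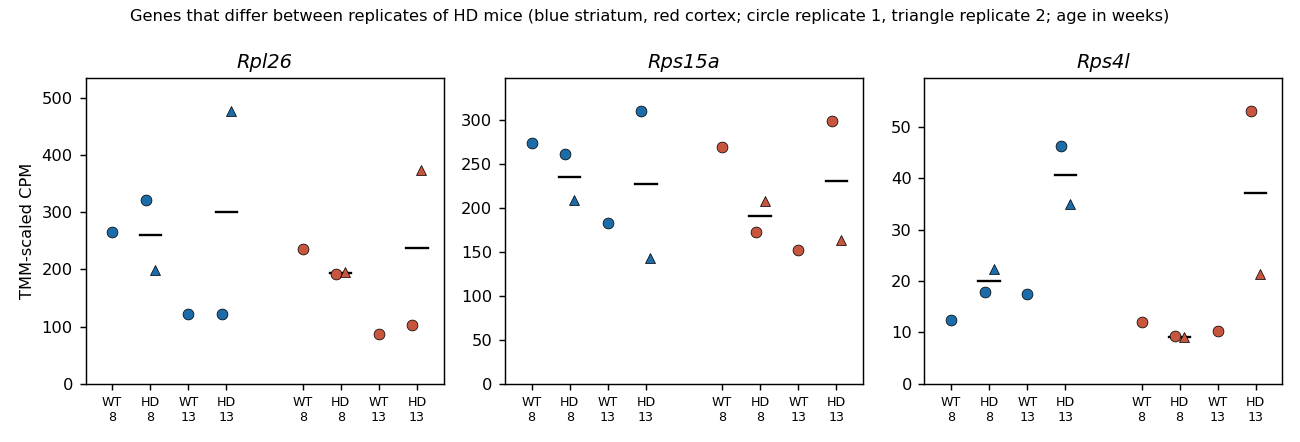
TMM-scaled CPM (y axes, from 0) of Rpl26, Rps15a and Rps4l in each library, by genotype and age in weeks, with striatum in blue and cortex in red, circles for replicate 1, triangles for replicate 2 and bars for the mean of 2 libraries. At 13 weeks the 2 HD replicates of Rpl26 lie at 123 and 477 CPM in striatum and at 102 and 374 CPM in cortex, and Rps15a lies in the opposite order.

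Members with and without the pyrimidine run at the annotated start had close medians. A gene filed without the run can hold one a few bases away, as the line of Rps12 above does. The split therefore cannot show whether the run matters. In HD mice after against before symptom onset, the 26 genes with the run had a median log2 fold change of 0.24 and the 38 without it one of 0.22. In striatum against cortex the medians were 0.27 and 0.26, with 12 of 26 and 13 of 38 called, and in HD against WT mice over both ages they were -0.13 and -0.18.

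Other genes of protein synthesis were counted over lists. Fau, a ribosome gene that the rule missed by name, was higher in striatum by 0.24 on the log2 scale (SE 0.08, adjusted p = 0.0452 by edgeR). Of 53 ribosome biogenesis genes tested, 3 rose after symptom onset in HD mice (1.93% of all genes rose), namely Fbl, the methyltransferase of pre-rRNA, by 0.72 on the log2 scale (SE 0.16, adjusted p = 0.0272 by edgeR), Riok1 by 0.83 (SE 0.19, adjusted p = 0.0334 by edgeR) and Nop14 by 0.49 (SE 0.13, adjusted p = 0.0442 by edgeR), with a median of 0.19 over the 53. In HD against WT mice over both ages, 5 of the 53 were higher and 2 lower, where 6.18% of all genes were higher and 4.51% lower. Of 10 elongation factor genes, Eef1a1 rose by 0.58 (SE 0.11, adjusted p = 0.0182 by edgeR). It was also higher in striatum by 0.52, where Eef1a2, the form of neurons and muscle, was lower by 0.58.

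Mitochondrial ribosomal protein genes had a median of 0.03 in HD mice after against before symptom onset, beside 0.0023 for all genes. Over both ages 4 of 77 were lower than in WT mice (4.51% of all genes were), among them Mrpl33 by -0.59 (SE 0.11, adjusted p = 0.00434 by edgeR), with a median of -0.13, and 5 of 77 were higher in striatum (8.51% of all genes were). Both shares are near those of all genes, but neither is from the pre-symptomatic comparison of HD with WT mice alone. Before symptom onset, the summed level of the listed mitochondrial genes was below WT in every HD library. In striatum it was 3117 and 2938 CPM in HD and 3258 CPM in WT mice. In cortex it was 2915 and 2863 CPM in HD and 3491 CPM in WT mice. At the post-symptomatic age every HD library was also below its WT library. Of 37 initiation factor genes, 3 were higher and 4 lower in HD than in WT mice over both ages, against 6.18% and 4.51% of all genes. Eif3a was higher by 0.84 (SE 0.11, adjusted p = 0.00105 by edgeR), whereas Eif3l and Eif3m were lower by 0.42 and 0.47 (SE 0.11 and 0.12, adjusted p = 0.0279 and 0.0254 by edgeR). Of 21 genes of mTOR and S6 kinase signalling, 2 were higher and 3 lower in the same comparison, again against 6.18% and 4.51% of all genes, with Eif4ebp2, an inhibitor of cap-dependent translation, higher by 1.25 (SE 0.16, adjusted p = 0.000821 by edgeR) and Mtor lower by 0.47 (SE 0.11, adjusted p = 0.0197 by edgeR).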

How the data were processed

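Conditions, ages, regions and replicates were read from the sample labels; the labels do not tie striatum and cortex of the same number to 1 mouse, and the fits treat them as independent. Libraries were made from 500 ng of total RNA with the Lexogen QuantSeq kit for 3′ ends. The submitters' processing notes name Bowtie2, bedtools and mm10 without versions; annotation, use of strand and treatment of reads with several matches are not given in the sources used here. The authors deposited raw read counts per gene symbol for each library, without normalization or molecular identifiers, so that precision from counts covers counting error only. Total counts were 8814386 to 12091201.

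From these counts, CPM were scaled by TMM factors, and genes were tested with the robust quasi-likelihood fit of edgeR 4.0.16 in R 4.3.3 after filterByExpr (minimum count 10), with Benjamini-Hochberg adjustment over all genes and a threshold of 0.05. HD stages were fitted over 8 HD libraries with region as a term, or with a mean for each group, and the other comparisons over 12 libraries with terms for region and for the 4 combinations of genotype and age. WT groups had 1 library each, and their spread is that of the fit. Alternatives were DESeq2 1.42.0, other scalings and filters, a threshold of 0.01, leaving out each library, a replicate block and a mean for each of 8 groups. voom (limma 3.58.1) with genotype, age and number together as a random block, pairing of the regions by number and leaving out both libraries that stood apart were added after the data were seen. In simulated data for HD stages, with 200 of 13668 genes changed by a log2 fold of 1.5, edgeR recovered 139 with 6.71% of its calls false, and DESeq2 153 with 15% false. The simulated libraries were independent, with the spread that edgeR estimated, so these false rates may not hold for the real calls.

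Members and lists were chosen with earlier results of these data known. Members were named by a rule: in 4 comparisons, the strongest called members with a mean of at least 5 CPM, at most 6 in each direction, in the others at most 3, the 6 with the highest level, and fixed roles and copies; of other genes, up to 3 per list with the smallest p. Positions, overlaps and 3′ copies came from GENCODE M21 (GRCm38) and start sequences from RefSeq (GRCm38.p6), matched by symbol for 67 of 88 members.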

Additional observations from a re-analysis of the deposited data

How the results depend on the processing

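Counts of called ribosomal protein genes depended on single libraries and, in some comparisons, on the tool. Shares of all genes were taken for the main edgeR fits only, so the counts below show only how the number varied. In HD mice after against before symptom onset (9 called), the count was 43 with library size alone, 0 at an adjusted p under 0.01, 4 with a mean for each of 8 groups, 3 without both libraries that stood apart (2 of them lower, against a majority higher), and 0 to 19 with 1 library left out. In HD striatum (0 called) it was 1 with DESeq2, 4 without both libraries and 0 to 5 with 1 library left out, and in HD cortex (0 called) it was 1 with DESeq2, 1 without a filter, 1 without both libraries and 0 to 10 with 1 left out. At 13 weeks, HD against WT mice (2 called) gave 0 at 0.01 and 0 to 3 with 1 library left out. At 8 weeks (1 called) it gave 3 with DESeq2, 2 with RLE, 3 with library size alone, 2 without Rn45s, 2 with at least 1 CPM in every library, 0 at 0.01, 0 with the replicate block, 0 with 8 means, and 0 to 4 with 1 left out. Over both ages (10 called) it gave 20 with DESeq2, 6 with the upper quartile, 2 at 0.01, 2 with the replicate block, 4 with 8 means, and 0 to 19 with 1 left out. WT mice by age (0 called) gave 1 with DESeq2, striatum against cortex (36 called) gave 12 at 0.01, 53 with library size alone and 13 to 48 with 1 left out, and the 8-week difference between regions (0 called) gave 0 to 2. Fewer samples enter each fit with a library left out; the cause of the other changes was not tested. The labels tie replicate numbers to no mouse, litter or day, but in HD mice the number is also the sex. Over 13944 genes the differences between replicates correlated between HD groups with r from 0.0251 to 0.27, and over the 85 genes with r from -0.144 to 0.741, the highest between post-symptomatic striatum and cortex, so that not every pair was over 0.1. That highest r includes Rpl26, Rps15a and Rps4l, which differed strongly between replicates, and it was not computed without them. All WT libraries have number 1, so that a block by number groups the female WT libraries at 13 weeks with the male HD ones. With the number as a replicate block, the count was 9 for HD stages, 2 at 13 weeks and 38 for the regions, and with the regions of a group and number paired it was 37. With genotype, age and number together as a random block in voom it was 8 for HD stages, 2 and 1 at 13 and 8 weeks, and 11 over both ages. WT groups of 1 library limit the comparisons with WT mice.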
